A study of Mus musculus with 34 samples.

Results

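Disease-associated microglia genes are genes that the brain's resident immune cells switch on around amyloid plaques. The set described here holds 10 of the 23951 genes listed in every deposited expression file: Trem2, Tyrobp, Cst7, Itgax, Clec7a, Axl, Lpl, Csf1, Spp1 and Gpnmb, taken by symbol. Their levels were compared in hippocampal tissue of male mice in 4 groups. Control mice carried the floxed Hdac1 alleles (Hdac1f/f) without Cre (n = 4), and Hdac1 cKO mice carried Hdac1f/f with Nestin-Cre (n = 5). 5XFAD mice carried Hdac1f/f and the 5XFAD amyloid transgenes, which the neuronal Thy1 promoter drives (n = 6), and compound mice carried all 3 (Hdac1 cKO; 5XFAD, n = 5). The mice were 13 months old, with 13 to 14 months given for the control and Hdac1 cKO mice by the labels. Nestin-Cre deletes in cells of the neural lineage (neurons and astrocytes), a lineage that does not give rise to microglia, and there was no control group with Nestin-Cre alone. The comparisons address how the 10 genes responded to the amyloid transgenes and whether loss of Hdac1 altered that response.

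Microglia survey the brain under resting conditions with a set of homeostatic genes such as P2ry12 and Cx3cr1. Near amyloid they take on another state, which depends in part on the receptor Trem2 and its signalling adaptor Tyrobp. In that state they raise genes for phagocytosis, lysosomal digestion and lipid handling. The 10 genes cover these roles: surface receptors and their adaptor (Trem2, Tyrobp, Clec7a, Axl), an integrin subunit (Itgax), a protease inhibitor (Cst7), a lipase (Lpl), secreted ligands (Csf1, Spp1) and a transmembrane glycoprotein of cells rich in lysosomes (Gpnmb).

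In mm9, the build that the authors used, the 10 genes lie on 7 chromosomes, and all are protein-coding. Trem2 lies at chr17:48485726-48493472 on the plus strand, Cst7 at chr2:150396151-150404680 on the plus strand and Clec7a at chr6:129411611-129422790 on the minus strand. Tyrobp lies at chr7:31198807-31202596 and Itgax at chr7:135273061-135294171, both on the plus strand, and Axl lies at chr7:26542292-26573724 on the minus strand. Lpl (chr8:71404390-71431347), Spp1 (chr5:104864137-104870069) and Gpnmb (chr6:48986517-49020928) lie on the plus strand, and Csf1 (chr3:107543966-107563387) lies on the minus strand.

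Promoters of 8 of the 10 genes (10 promoters, with 2 each for Clec7a and Spp1), 250 bases before to 50 bases after the start site, were read from RefSeq (GRCm38.p6). Tyrobp and Lpl had no entry. They were searched on both strands for the AP-1 site TGANTCA, the PU.1 core GAGGAAG and the E-box CACGTG, which MITF and TFEB bind. An AP-1 match was found in 4 of the 10 promoters, those of 4 genes, against 7.81% of the 32851 promoters in the table. The PU.1 core was found in 3 of the 10 promoters (Trem2, Axl and 1 of Spp1), against 13.6% of all promoters, and the E-box in none, against 7.15%. A match describes letters in the window and does not show that a factor binds there. The promoters with an AP-1 match are shown, since this match was the most frequent of the 3 among these promoters. Capitals mark the AP-1 match and, in Trem2, also the PU.1 core CTTCCTC on the opposite strand, 41 to 35 bases before the start site. The AP-1 match lies 9 to 3 bases before the start site in Trem2 and 56 to 50 bases before it in Itgax, starts 6 bases before it in Cst7 and lies 9 to 15 bases after it in Gpnmb. The windows are chr17:48346151-48346450 (Trem2), chr2:150570165-150570464 (Cst7), chr7:128129300-128129599 (Itgax) and chr6:49036268-49036567 (Gpnmb), all on the plus strand.
Trem2: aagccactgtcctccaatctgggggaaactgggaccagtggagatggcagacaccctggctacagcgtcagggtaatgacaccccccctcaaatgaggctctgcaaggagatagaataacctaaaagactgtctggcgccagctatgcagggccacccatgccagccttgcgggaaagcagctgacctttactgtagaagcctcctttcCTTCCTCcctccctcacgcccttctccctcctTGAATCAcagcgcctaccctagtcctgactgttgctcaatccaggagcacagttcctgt
Cst7: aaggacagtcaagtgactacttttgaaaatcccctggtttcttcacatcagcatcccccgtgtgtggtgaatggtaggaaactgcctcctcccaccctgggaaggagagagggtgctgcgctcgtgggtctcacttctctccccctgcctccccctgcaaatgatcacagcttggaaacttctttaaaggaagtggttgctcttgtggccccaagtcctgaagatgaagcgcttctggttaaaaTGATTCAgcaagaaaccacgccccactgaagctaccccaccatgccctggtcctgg
Itgax: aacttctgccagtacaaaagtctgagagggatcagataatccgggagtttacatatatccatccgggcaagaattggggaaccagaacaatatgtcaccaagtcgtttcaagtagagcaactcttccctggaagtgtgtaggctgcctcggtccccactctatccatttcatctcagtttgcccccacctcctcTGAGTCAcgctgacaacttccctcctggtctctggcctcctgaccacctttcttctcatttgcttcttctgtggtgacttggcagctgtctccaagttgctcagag
Gpnmb: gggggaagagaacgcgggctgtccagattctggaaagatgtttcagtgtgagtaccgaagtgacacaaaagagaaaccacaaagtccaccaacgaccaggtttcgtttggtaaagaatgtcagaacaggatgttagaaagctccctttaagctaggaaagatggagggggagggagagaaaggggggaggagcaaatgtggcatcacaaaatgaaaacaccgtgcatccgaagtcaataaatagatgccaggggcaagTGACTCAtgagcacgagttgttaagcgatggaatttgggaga

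RNA was sequenced as 1 library per mouse. Values are FPKM, fragments scaled to transcript length and to the mapped fragments of the library, as the authors deposited them. The libraries cover 3′ ends, so FPKM is compared between mice for 1 gene and not between genes. Relative depth, read from the steps between low FPKM values, ranged from 0.754 (compound mouse 3) to 2.35 times that of control mouse 1. Hdac1 checked the labels: it ranged from 5.91 to 10.7 FPKM in the control and 6.10 to 9.64 FPKM in the 5XFAD mice, against 2.36 to 3.03 FPKM in the Hdac1 cKO and 1.15 to 2.52 FPKM in the compound mice. Thy1, whose promoter drives the transgenes, was listed at 303 to 388 FPKM in the 9 mice without and 1563 to 2357 FPKM in the 11 mice with 5XFAD. Whether the libraries of mice with and without 5XFAD were made together is not given in the sources used here, so the amyloid genotype and the set of libraries cannot be told apart. Ttr, the defining gene of the choroid plexus, a tissue that borders the hippocampus, ranged from 576 to 20146 FPKM in the control, 56.5 to 1608 FPKM in the Hdac1 cKO, 53.8 to 7892 FPKM in the 5XFAD and 58.9 to 13910 FPKM in the compound mice.

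All 10 genes were higher on average in 5XFAD than in control mice, and 6 of them (Trem2, Tyrobp, Cst7, Itgax, Clec7a and Csf1) passed an adjusted p under 0.05. The background was 0.667% of the 14402 genes tested. Itgax passed the filter on low values only through the 5XFAD mice. The test was limma on log2(FPKM + 1) of genes averaging at least 0.5 FPKM, the filter on low values, with Benjamini-Hochberg adjustment over all genes tested. At the study's thresholds, a fold change of at least 1.5 with an unadjusted p under 0.05, 9 of the 10 passed, all but Axl, against a background of 1.72%. In 8 of the 10, every 5XFAD mouse lay above every control mouse, against a background of 1.92%. The exceptions were Lpl and Spp1, with 5 of 6 5XFAD mice above the highest control mouse. The median difference of the 10 genes was 1.44 on the log2(FPKM + 1) scale, and that of all genes tested was -0.01. Hippocampal tissue holds many cell types, so more cells of a type and more RNA per cell cannot be told apart in these values.

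**Figure D1:**
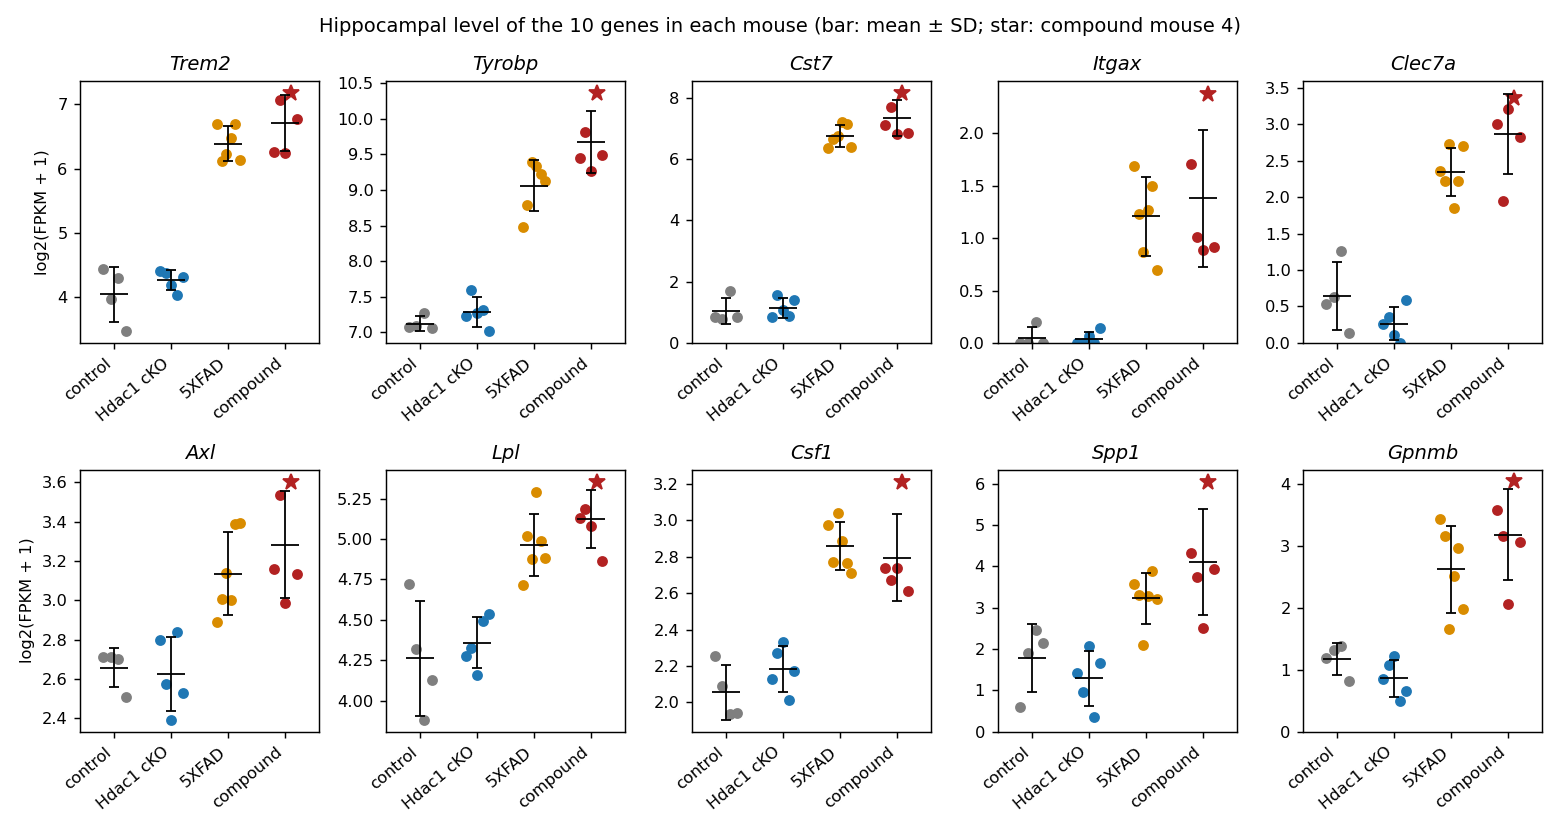
Level of each of the 10 genes in every hippocampal mouse, as log2(FPKM + 1) on the y axis (axes differ between genes, and some do not start at 0), by group on the x axis. Points are mice, bars give the mean ± SD, and the star is compound mouse 4, the highest of the 11 mice with 5XFAD for all 10 genes.

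Cst7, which encodes cystatin F, an inhibitor of lysosomal cathepsins, had the largest difference of the 10. Its level was 0.783, 0.715, 2.22 and 0.801 FPKM in the 4 control mice and 0.781, 1.95, 1.09, 0.839 and 1.67 FPKM in the 5 Hdac1 cKO mice. It was 81.9 FPKM in the lowest, 103 in the median and 148 in the highest of the 6 5XFAD mice, and 137, 206, 112, 287 and 115 FPKM in the 5 compound mice. The groups with and without 5XFAD did not overlap, and control mouse 3 stood above the other control mice. The FPKM steps place 2 to 6 fragments behind each control value and 291 to 660 behind each 5XFAD value. The mean was 97.0 times higher in 5XFAD than in control mice, and the difference was 5.71 on the log2(FPKM + 1) scale (SE 0.21, adjusted p = 1.23e-08).

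Trem2, a surface receptor that senses lipids and lipoproteins, was 20.7, 14.7, 18.6 and 10.1 FPKM in the control mice and 20.2, 19.8, 17.4, 15.4 and 18.9 FPKM in the Hdac1 cKO mice. It was 68.5 FPKM in the lowest, 81.0 in the median and 103 in the highest 5XFAD mouse, and 76.0, 134, 75.1, 144 and 108 FPKM in the compound mice. All mice with 5XFAD lay above all mice without it. The rise was 2.35 (SE 0.19, adjusted p = 3.68e-05) in 5XFAD and 2.66 (SE 0.25, adjusted p = 0.000745) in compound mice, each against control, or 5.25 and 6.70 times by mean FPKM.

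Tyrobp, the adaptor through which Trem2 signals, was 133, 135, 153 and 132 FPKM in the control mice and 149, 192, 153, 158 and 129 FPKM in the Hdac1 cKO mice. It was 357 FPKM in the lowest, 579 in the median and 673 in the highest 5XFAD mouse, and 698, 900, 613, 1318 and 721 FPKM in the compound mice. Again no mouse with 5XFAD fell into the range of those without it, and 4 of the 5 compound mice lay above the highest 5XFAD mouse. The rise over control was 1.94 (SE 0.16, adjusted p = 4.09e-05) in 5XFAD and 2.55 (SE 0.19, adjusted p = 0.000260) in compound mice.

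Clec7a, the receptor Dectin-1 for beta-glucans, was 0.444, 0.540, 1.399 and 0.101 FPKM in the control mice and 0.197, 0.276, 0.0826, 0 and 0.503 FPKM in the Hdac1 cKO mice. It was 2.60 FPKM in the lowest, 3.88 in the median and 5.63 in the highest 5XFAD mouse, and 6.98, 2.86, 8.24, 9.25 and 6.10 FPKM in the compound mice. Here too the amyloid groups lay above the others, and compound mouse 2 was the only compound mouse below the highest 5XFAD mouse. The rise over control was 1.71 (SE 0.23, adjusted p = 0.00187) in 5XFAD and 2.23 (SE 0.30, adjusted p = 0.00399) in compound mice. Between 0 and 10 fragments stood behind each value without 5XFAD and between 20 and 140 with it.

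Itgax, the CD11c integrin subunit, was listed at 0 in control mice 1, 2 and 4 and at 0.152 FPKM in control mouse 3, where the steps give 2 fragments. In the Hdac1 cKO mice it was listed at 0 in 3 mice and at 0.0448 and 0.102 FPKM in mice 3 and 5. It was 0.616 FPKM in the lowest, 1.38 in the median and 2.23 in the highest 5XFAD mouse, and 2.27, 1.01, 0.852, 4.19 and 0.889 FPKM in the compound mice. The 172 fragments in 5XFAD against 2 in control mice gave a ratio of 49.3 per unit of depth (95% exact interval from 13.4 to 410, which covers counting error only). Itgax passed the filter on low values only through the mice with 5XFAD, so a difference was bound to follow. The difference of 1.16 in 5XFAD mice had an adjusted p of 0.0188, which rose to 0.0627 without control mouse 2, 0.0634 without control mouse 4 and 0.0516 without 5XFAD mouse 5. That of 1.33 in compound mice had an adjusted p of 0.0848.

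Csf1, the growth factor that binds Csf1r on microglia, was 3.78, 3.26, 2.82 and 2.84 FPKM in the control mice and 3.37, 3.83, 4.03, 3.03 and 3.50 FPKM in the Hdac1 cKO mice. It was 5.55 FPKM in the lowest, 6.12 in the median and 7.24 in the highest 5XFAD mouse, and 5.68, 5.37, 5.67, 8.28 and 5.11 FPKM in the compound mice. The groups with and without 5XFAD did not overlap. The rise was 0.80 (SE 0.13, adjusted p = 0.00615) in 5XFAD mice, and the difference of 0.74 in compound mice had an adjusted p of 0.0687. Spp1, which encodes the secreted ligand osteopontin, spread widely within each group. It was 0.504, 2.76, 4.53 and 3.43 FPKM in the control mice and 1.67, 0.941, 3.24, 0.270 and 2.14 FPKM in the Hdac1 cKO mice. In 5XFAD mice it was 3.27 FPKM in the lowest, 8.82 in the median and 13.9 in the highest, and in the compound mice 19.0, 12.4, 4.68, 65.4 and 14.3 FPKM. 5XFAD mouse 3 lay inside the control range, and compound mouse 4 stood far above all others. Neither difference from control passed, at 1.45 (SE 0.40, adjusted p = 0.204) in 5XFAD and 2.33 (SE 0.71, adjusted p = 0.273) in compound mice. Without 5XFAD mouse 3 the first was 1.67 with an adjusted p of 0.0453.

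Gpnmb was 1.28, 1.48, 1.61 and 0.756 FPKM in the control mice and 0.794, 1.12, 1.33, 0.411 and 0.580 FPKM in the Hdac1 cKO mice. It was 2.14 FPKM in the lowest, 5.77 in the median and 9.79 in the highest 5XFAD mouse, and 10.9, 7.92, 3.17, 15.5 and 7.30 FPKM in the compound mice. No mouse with 5XFAD fell into the range of those without it. The rise over control was 2.00 (SE 0.33, adjusted p = 0.0185) in compound mice. In 5XFAD mice the difference was 1.44 (SE 0.32, adjusted p = 0.0659), and it passed without 5XFAD mouse 3 (1.64, adjusted p = 0.0129) and without 5XFAD mouse 6 (1.57, adjusted p = 0.0451). The compound call had adjusted p-values of 0.0561 without control mouse 2, 0.0737 without control mouse 4 and 0.0600 without compound mouse 2.

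Lpl, lipoprotein lipase, which releases fatty acids from lipoproteins, and Axl, a receptor tyrosine kinase that serves the uptake of dying cells, had the smallest ratios of mean FPKM to control of the 10, in 5XFAD and in compound mice. Lpl ranged from 13.7 to 25.4 FPKM in control, 16.9 to 22.2 in Hdac1 cKO, 25.3 to 38.3 in 5XFAD and 28.1 to 39.96 FPKM in compound mice. The lowest 5XFAD mouse lay just below the highest control mouse. Lpl rose by 0.86 (SE 0.16, adjusted p = 0.0351) in compound mice, and the difference in 5XFAD mice was 0.70 (adjusted p = 0.0650, and 0.0124 without control mouse 1). The compound call was lost without any 1 of 7 of the 9 mice (control mice 2, 3 and 4 and compound mice 1 to 4), where the difference lay between 0.73 and 0.88 and the adjusted p between 0.0578 and 0.120. Axl ranged from 4.69 to 5.55 FPKM in control, 4.25 to 6.16 in Hdac1 cKO, 6.41 to 9.50 in 5XFAD and 6.92 to 11.2 FPKM in compound mice, without overlap between mice with and without 5XFAD. Its differences from control, 0.48 (adjusted p = 0.175) and 0.63 (adjusted p = 0.121), did not pass.

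In compound against control mice 6 of the 10 passed (Trem2, Tyrobp, Cst7, Clec7a, Lpl and Gpnmb), against a background of 0.627% of 14348 genes tested. All 10 passed the study's thresholds, against 2.22%, and in all 10 every compound mouse lay above every control mouse, against 2.75%. Their median difference was 2.12, and that of all genes tested was -0.01. Cst7 differed most, by 6.29 (SE 0.30, adjusted p = 1.05e-05). The calls of Trem2, Tyrobp, Cst7 and Clec7a held in both amyloid groups without any 1 mouse. Both comparisons use the same 4 control mice. With the replicate number as a block in limma, the call of Trem2 in compound mice was lost (2.65, adjusted p = 0.135). Those of Lpl (adjusted p = 0.0874) and Gpnmb (0.171) in compound mice were lost too. So were those of Itgax (0.160) and Csf1 (0.122) in 5XFAD mice. Without the mice with Ttr of at least 1000 FPKM, a setting chosen after seeing the data, 1 control, 2 5XFAD and 4 compound mice were left, too few to read a call from.

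**Figure D2:**
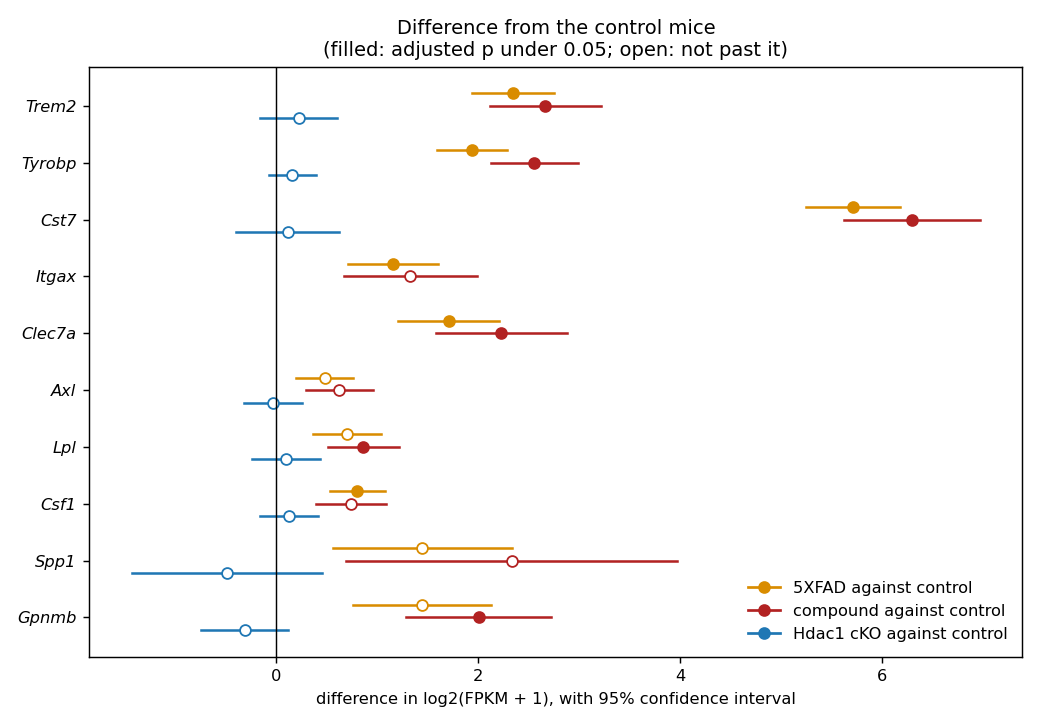
Difference of each gene from the control mice in log2(FPKM + 1) (x axis, with 95% confidence intervals) for 5XFAD, compound and Hdac1 cKO mice. Filled points passed an adjusted p under 0.05: 6 of 10 genes in 5XFAD, 6 of 10 in compound and none of the 8 tested in Hdac1 cKO mice.

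In Hdac1 cKO mice without amyloid, none of the 8 genes tested in limma passed, 0 had an unadjusted p under 0.05, against 11.7% of all genes, and none of the 10 had every Hdac1 cKO mouse above every control mouse. The background was 0.00701% of 14265 genes for higher and 0.147% for lower calls, and 2.08% of genes lay wholly above control. None passed the study's thresholds, against 0.498% of genes as higher and 2.87% as lower. Itgax and Clec7a were under the filter on low values. Differences ranged from -0.49 for Spp1 to 0.22 for Trem2. The intervals were narrowest for Tyrobp, from -0.07 to 0.39, and widest for Spp1, from -1.43 to 0.46.

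The comparison of compound with Hdac1 cKO mice asks for the amyloid response where both groups carry Hdac1f/f with Nestin-Cre. Here 9 of the 10 passed, all but Spp1 (adjusted p = 0.0773), against a background of 1.42% of 14195 genes. All 10 passed the study's thresholds, against 2.94%, and every compound mouse lay above every Hdac1 cKO mouse for all 10, against 2.44%. The median difference was 2.36, and that of all genes tested -0.01. Cst7 rose by 6.18 (SE 0.26, adjusted p = 2.11e-07), Clec7a by 2.61 (SE 0.24, adjusted p = 6.03e-05), Trem2 by 2.44 (SE 0.18, adjusted p = 1.48e-05) and Tyrobp by 2.40 (SE 0.19, adjusted p = 4.46e-05). Itgax and Clec7a passed the filter only through the compound mice. The calls of Itgax (adjusted p = 0.0208), Axl (0.0456) and Csf1 (0.0475) stood close to the threshold. That of Itgax was lost without any 1 of 5 of the 10 mice (adjusted p from 0.0534 to 0.0614), that of Axl without any 1 of 8 and that of Csf1 without any 1 of 9.

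Compound mice had a higher mean than 5XFAD mice for 9 of the 10 genes, all but Csf1, and none of the 10 passed an adjusted p under 0.05 in limma. Over all 14326 genes tested, 7143 were higher on average, with a median difference of -0.000456, and 0 were called higher (0%). The adjusted p-values of the 10 lay between 0.718 and 0.926, and 3 genes had an unadjusted p under 0.05, against 6.61% of all genes: Tyrobp (0.0108), Cst7 (0.0425) and Clec7a (0.0428). Tyrobp differed by 0.62 (95% interval from 0.17 to 1.06, 1.56 times by mean FPKM, two-sided exact permutation p = 0.0173) and was the 1 gene of the 10 past the study's thresholds, against a background of 0.691%. Cst7 differed by 0.58 (0.02 to 1.13, exact permutation p = 0.0736) and Clec7a by 0.52 (0.02 to 1.03, exact permutation p = 0.0909). For the others the intervals included 0: from -0.08 to 0.72 for Trem2, -0.42 to 0.77 for Itgax, -0.16 to 0.46 for Axl, -0.09 to 0.41 for Lpl, -0.34 to 0.21 for Csf1, -0.37 to 2.15 for Spp1 and -0.29 to 1.41 for Gpnmb. The ranges of the groups overlapped for all 10 genes, where 0.391% of genes lay wholly higher in compound mice.

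Compound mouse 4 was the highest of the 11 amyloid mice for all 10 genes. Its summed level of the 10 was 1903 FPKM, against a median of 1014 FPKM in the compound group. It also had the highest sum of the 14 general microglia and macrophage genes described next (2427 FPKM) and the highest Thy1 (2357 FPKM), and its relative depth of 2.24 was the greatest of its group. Genes of other cells were high in it too: the 8 oligodendrocyte genes summed to 2114 FPKM (1182 to 1624 FPKM in the other 10 amyloid mice) and the 10 astrocyte genes to 1781 FPKM (1316 to 1568 FPKM). The 8 neuronal genes summed to 1742 FPKM, within the range of the others. Without it, the differences from 5XFAD mice were 0.45 for Tyrobp, 0.37 for Cst7, 0.40 for Clec7a, 0.40 for Spp1 and 0.34 for Gpnmb. They were 0.20 for Trem2, 0.07 for Axl, 0.10 for Lpl and -0.17 for Csf1, and that of Itgax turned to -0.08. The median of the 10 was 0.27 in place of 0.42, with 8 in place of 9 higher in compound mice. In limma, 1 of the 10 had an unadjusted p under 0.05 in place of 3 (background 6.69%). At the study's thresholds 0 passed in place of 1 (background 0.622%), and none passed an adjusted p under 0.05.

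**Figure D3:**
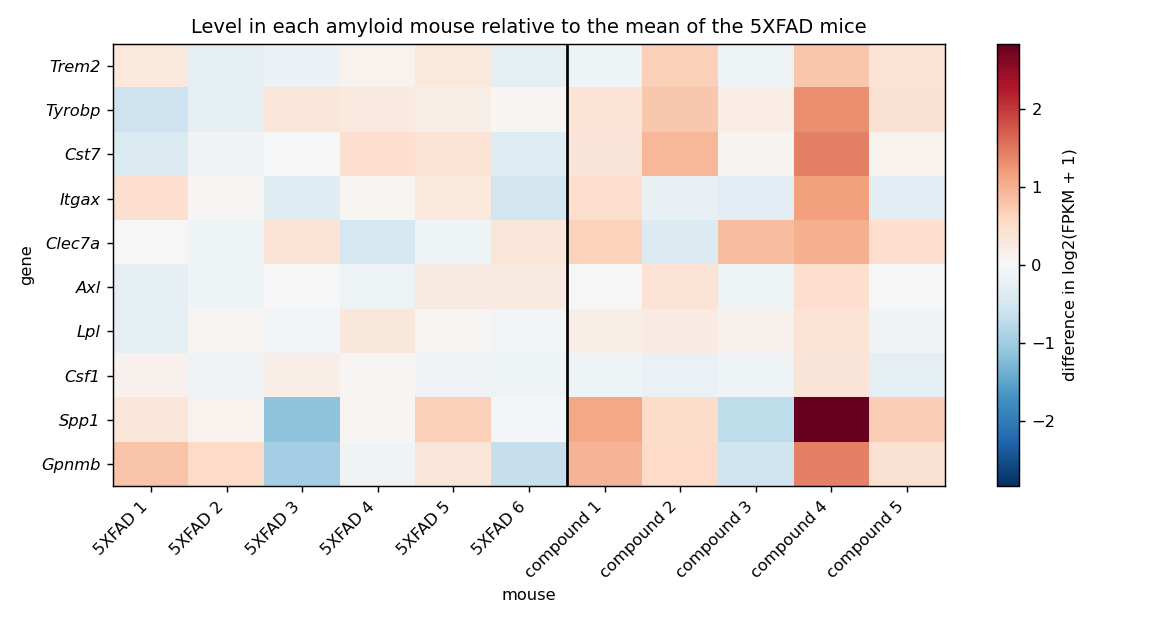
Level of each gene (rows) in each of the 11 mice with 5XFAD (columns, 6 5XFAD and 5 compound mice), as the difference in log2(FPKM + 1) from the mean of the 5XFAD mice. Red is higher and blue lower, and the column of compound mouse 4 is the highest in every row.

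The interaction of Hdac1 loss and 5XFAD, fitted with limma over all 20 hippocampal mice, asks whether the amyloid response differed with Hdac1 loss. None of the 10 genes passed, where 0 of 14389 genes did (0% higher and lower), and 1 had an unadjusted p under 0.05, against 8.97% of all genes. This was Clec7a, with an interaction of 0.90 (95% interval from 0.18 to 1.62, adjusted p = 0.464 in limma). Clec7a was also the 1 gene past the study's thresholds, against 2.69%. The estimate was above 0 for 9 of the 10, with a median of 0.32. Over all genes tested it was above 0 for 7318 of 14389, with a median of 0.00671. Without compound mouse 4 the estimate was above 0 for 7 of the 10, with a median of 0.18. The widest interval was that of Spp1 (1.37, from -0.24 to 2.99), and Csf1 had the only estimate below 0 (-0.19, from -0.56 to 0.17).

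General markers moved with the amyloid groups. Of 14 genes that microglia and macrophages express in all states, 11 rose in 5XFAD and 11 in compound mice against control (background 0.667% and 0.627%). The medians were 1.29 and 1.60. In Hdac1 cKO mice 0 passed, and 1 had an unadjusted p under 0.05 in limma (background 11.7%). In compound against 5XFAD mice all 14 were higher on average (7143 of all 14326 genes), with a median of 0.26. There 4 had an unadjusted p under 0.05 in limma (background 6.61%) and 0 passed an adjusted p under 0.05. Compound mouse 4 summed to 2427 FPKM for these genes, against 1084 to 1944 FPKM in the other amyloid mice. Values of this comparison without that mouse are not given here. The summed level of the 14 genes was 462 to 541 FPKM in control, 475 to 511 in Hdac1 cKO, 1084 to 1452 in 5XFAD and 1203 to 2427 FPKM in compound mice, and none was at 0 in any hippocampal mouse. C1qa, a subunit of complement C1q, rose by 1.78 (adjusted p = 0.000238) and 1.94 (adjusted p = 0.000224). Csf1r, the receptor of Csf1, rose by 1.08 (adjusted p = 0.000168) and 1.21 (adjusted p = 0.0118).

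Against the mean log2(FPKM + 1) of those 14 genes, which differed by 1.19 in 5XFAD and 1.46 in compound mice, the 10 genes split. Cst7 exceeded the change of the list by 4.52 in 5XFAD and 4.83 in compound mice, and Trem2 by 1.15 and 1.20, without overlap with the control mice in either. Tyrobp exceeded it by 0.74 in 5XFAD, where the ranges overlapped, and by 1.09 in compound mice, where they did not. Axl changed less than the list, by -0.72 and -0.84, and so did Csf1, by -0.39 and -0.72, each with every amyloid mouse below every control mouse. The relative level of Itgax, Clec7a, Lpl, Spp1 and Gpnmb overlapped between control and both amyloid groups. In compound against 5XFAD mice the list differed by 0.27, and the relative level of all 10 genes overlapped. The log2(FPKM + 1) scale understates changes of genes of low FPKM, among them Itgax, Clec7a, Cst7, Gpnmb and Spp1 in mice without amyloid. It also does so for Csf1 and Axl, which averaged 3.18 and 5.32 FPKM in control mice. In nuclei of control cortex sorted for the astrocyte marker GFAP, Csf1 averaged 15.3 and Axl 34.1 FPKM. The part of cells other than microglia in their hippocampal levels was not tested. The share of all genes without overlap in relative level was not computed, so these non-overlaps have no background.

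**Figure D4:**
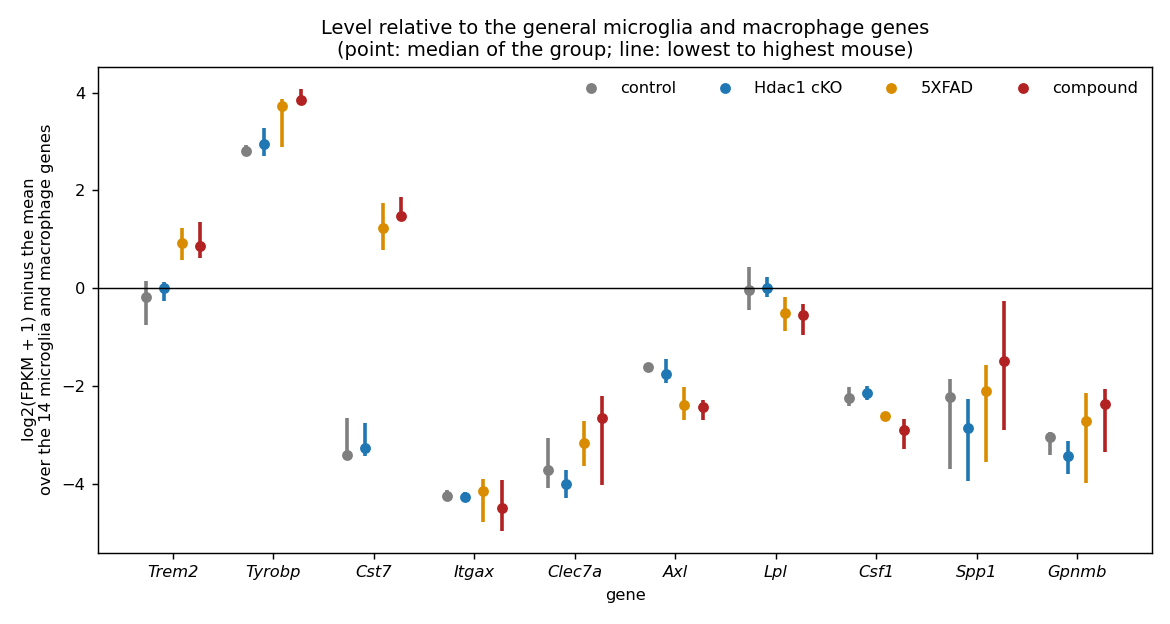
Level of each gene minus the mean over the 14 general microglia and macrophage genes, both in log2(FPKM + 1) (y axis), by gene on the x axis. Points are group medians and lines run from the lowest to the highest mouse; the lines of Cst7 and Trem2 lie higher, and those of Axl and Csf1 lower, in the mice with 5XFAD.

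Of 14 homeostatic microglia genes, 5 rose in 5XFAD mice and 7 in compound mice against control (background 0.667% and 0.627%). None passed as lower, and the medians were 0.46 and 0.91. In compound against 5XFAD mice 12 of the 14 were higher on average (7143 of all 14326 genes), with a median of 0.28. Of the 14, 8 had an unadjusted p under 0.05 in limma (background 6.61%) and 0 passed an adjusted p under 0.05. The mean log2(FPKM + 1) of the 14 was 5.07 in compound mouse 4, against 4.53 to 4.76 in the other compound mice. Values of this comparison without compound mouse 4 are not given here. Cx3cr1, the fractalkine receptor, averaged 12.8 ± 1.62 FPKM (SD, n = 4) in the control mice and rose by 0.95 (adjusted p = 0.000420) in the 5XFAD mice, to 25.6 ± 2.19 FPKM (n = 6). P2ry12, a receptor for extracellular nucleotides, averaged 15.5 ± 1.95 FPKM in control, 16.7 ± 3.13 FPKM in 5XFAD and 23.8 ± 4.04 FPKM in compound mice (differences from control of 0.09, adjusted p = 0.871, and 0.58, adjusted p = 0.106).

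Of 30 other genes of the disease-associated state, 14 rose in 5XFAD and 15 in compound mice against control, and 22 in compound against Hdac1 cKO mice (background 0.667%, 0.627% and 1.42%). The medians were 0.75, 1.05 and 1.41, and none passed as lower. Of those that rose, 2 in 5XFAD (Lilrb4 and Cybb) and 3 in each compound comparison (also Ch25h) averaged under 0.5 FPKM in the mice without amyloid. They passed the filter only through the amyloid mice, so a rise was bound to follow. The chemokines Ccl3 and Ccl4 differed most, by 3.11 and 3.09 in 5XFAD mice (adjusted p = 0.000227 and 0.00204) and by 3.88 and 4.36 in compound mice (adjusted p = 5.47e-05 and 0.000609). Cd52, a small surface glycoprotein, rose by 2.08 and 2.33, and Cd68, a glycoprotein of lysosomes, by 1.94 and 2.53. Ccl4 was 28.1 ± 6.70 FPKM (SD, n = 5) in compound and 11.3 ± 3.85 FPKM (n = 6) in 5XFAD mice, without overlap. That difference of 1.27 had an unadjusted p of 2.48e-05 and an adjusted p of 0.0888. Of the 30, 28 were higher on average in compound than in 5XFAD mice (7143 of all 14326 genes). In that comparison 11 had an unadjusted p under 0.05 in limma (background 6.61%) and 0 passed an adjusted p under 0.05. At the study's thresholds 4 were higher (background 0.691%). The interaction was above 0 for all 30 (7318 of all 14389 genes). There 10 had an unadjusted p under 0.05 in limma (background 8.97%) and 0 passed an adjusted p under 0.05. At the study's thresholds 7 passed (background 2.69%). Compound mouse 4 had the highest sum of the 30 genes of the 11 amyloid mice, 22548 FPKM against 15135 to 19032 FPKM. Without it, 23 of the 30 were higher in compound than in 5XFAD mice, with a median of 0.12 in place of 0.23. In limma, 5 of the 30 had an unadjusted p under 0.05 (background 6.69%) and 3 were higher at the study's thresholds (background 0.622%). The interaction without this mouse was above 0 for 28, with a median of 0.33 in place of 0.49. For the interaction, 10 had an unadjusted p under 0.05 in limma (background 8.89%) and 5 were past the study's thresholds (background 2.44%). In Hdac1 cKO against control mice, 1 of 27 tested genes passed (background 0.147% lower), the tetraspanin Cd63, which fell by 0.83 (adjusted p = 0.0315 in limma). Cd63 passed in 6 of 19 alternatives, with a difference between -0.94 and -0.47 and an adjusted p from 0.000908 to 0.664. With log2(Ttr + 1) as a covariate it was -0.66 (adjusted p = 0.664), and with the replicate block -0.79 (adjusted p = 0.149). All 10 choroid plexus genes were lower on average in the same comparison, with a median of -2.84, and their part in the difference of Cd63 was not tested. Over the 27 genes, 4 were higher on average in Hdac1 cKO mice (7108 of all 14265 genes), and the median was -0.22. Of the 27, 7 had an unadjusted p under 0.05 in limma (background 11.7%) and 3 were lower at the study's thresholds (background 2.87%). These differences enter the interaction.

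Of 24 ligands, receptors, signalling proteins and transcription factors tied to them, 20 were tested in 5XFAD against control mice. Of these 1, Csf1r, passed an adjusted p under 0.05 as higher (background 0.667%), with a median of 0.15 over the list. At the study's thresholds 3 were higher (background 1.72%). In compound against control mice, 19 were tested and again Csf1r alone passed an adjusted p under 0.05 (background 0.627%). At the study's thresholds 7 were higher (background 2.22%) and 2 lower (background 2.02%). In compound against Hdac1 cKO mice, 5 of 19 rose, against a background of 1.42%. They were Csf1r (1.01), Pros1, a ligand of the Axl family (0.79), Cd44, a receptor of osteopontin (1.03), Itgb2, the beta subunit that pairs with Itgax (1.31), and Spi1, which encodes PU.1 (1.37).

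Markers of other cells gave the setting. Among 10 astrocyte genes, 2 passed in 5XFAD and 2 in compound mice against control (background 0.667% and 0.627%), with medians of 0.14 and 0.30. Gfap rose by 1.90 in 5XFAD (adjusted p = 1.86e-06) and 2.10 in compound mice (adjusted p = 0.000224), Vim by 1.16 in 5XFAD and Aqp4 by 1.23 in compound mice. In 5XFAD mice 8 of the 10 were higher on average, and Gja1 (-0.17) and Slc1a3 (-0.06) were lower without passing. None of 11 genes of perivascular macrophages and blood leukocytes passed in any comparison, with 3 or 4 above the filter, and their summed level was 10.2 to 37.9 FPKM in control, 9.003 to 20.6 in Hdac1 cKO, 6.22 to 36.3 in 5XFAD and 12.03 to 21.9 FPKM in compound mice. None of 10 choroid plexus genes passed, and all 10 were lower on average than in control mice in each other group, with an unadjusted p under 0.05 for 10 in Hdac1 cKO, 7 in compound and 0 in 5XFAD mice, against 11.7%, 10.5% and 10.7% of all genes. With log2(Ttr + 1) as a covariate, 5 of the 10 disease-associated genes passed in 5XFAD and 4 in compound mice against control, where 0.41% and 0.195% of all genes passed as higher. The calls lost were that of Itgax in 5XFAD mice (1.07 with the covariate, 1.16 without, adjusted p = 0.0784 in limma) and those of Lpl (0.73 and 0.86, adjusted p = 0.340) and Gpnmb (2.29 and 2.00, adjusted p = 0.0988) in compound mice.

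Across the 11 amyloid mice, with group means removed, the 45 pairs of the 10 genes had a median Pearson r of 0.43, ranging from -0.37 to 0.84, and 40 were above 0. Without compound mouse 4 the median was 0.03, 23 pairs were above 0, and r ranged from -0.79 to 0.86. The 5 genes most like the mean of the 10, of 12964 compared, were Ctsh (r = 0.94), Slc29a3 (0.91), Ctsz (0.91), Ubash3b (0.89) and Pcyt2 (0.89). Without compound mouse 4 their r was 0.89, 0.67, 0.61, 0.54 and 0.78. Their ranks were then 7, 299, 513, 850 and 82, so none stayed among the first 5. Points share library and depth, and these r are descriptions with no test. Ctsh and Ctsz encode lysosomal cathepsins, and Ctsh averaged 5.84 FPKM in control, 12.9 in 5XFAD and 18.2 FPKM in compound mice.

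In GFAP+ nuclei of the cortex, sorted for an astrocyte marker from 3 control and 4 Hdac1 cKO mice without amyloid and sequenced by another method, the 10 genes are described without a test. Axl was 37.2, 31.4 and 33.8 FPKM in the control and 31.8, 27.1, 32.8 and 35.0 FPKM in the Hdac1 cKO nuclei. Csf1 was 14.0, 17.7 and 14.1 FPKM in the control and 23.0, 13.2, 23.5 and 17.3 FPKM in the Hdac1 cKO nuclei. The ranges of the control and Hdac1 cKO nuclei overlapped for both genes. Trem2 ranged from 2.05 to 8.23 FPKM in the control and 0.124 to 7.93 FPKM in the Hdac1 cKO nuclei, Tyrobp from 5.04 to 23.3 and from 9.45 to 21.9 FPKM, and Clec7a was at 0 in the 3 control samples. The 14 general microglia and macrophage genes summed to between 57.4 and 203 FPKM in these 7 samples, and the 10 astrocyte genes to between 2867 and 3481 FPKM. How far RNA of microglia entered the sort was not tested.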

How the data were processed

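Hippocampal tissue of 20 mice and GFAP+ cortical nuclei of 7 mice were analysed. The other 7 of the 34 samples listed, 6 of them ChIP-seq, were not analysed here. The authors deposited FPKM values, 1 per gene and mouse. For the hippocampus they sequenced 3′ ends, collapsed duplicate reads, aligned them with Tophat2 and computed FPKM with Cufflinks 2.0.0 on mm9 (versions from the submitters' processing notes). FPKM holds no counts, so no count model was used. Relative depth and whole fragments of 6 of the 10 genes and Hdac1 were read from steps between low values, to within 0.1 of a whole multiple.

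Values were transformed to log2(FPKM + 1). Genes averaging 0.5 FPKM or more in the mice compared entered limma 3.58.1, run in R 4.3.3 (trend and robust options, Benjamini-Hochberg adjustment), and only the groups compared entered a fit, apart from the interaction. Limma assumed independent mice, and the labels do not give litters. The fits were tested on simulated data, and the outcome is not reported here. Permutation tests were exact and two-sided. Python 3.11.15 with pandas 2.3.3 and matplotlib 3.10.9 was used otherwise.

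The 10 genes and all gene lists were chosen with earlier results of these data known. Genes of other lists were named by a rule: up to 4 per list with the largest change among those that passed, plus any that passed elsewhere, with Hdac1, Thy1 and Ttr as checks. The 5 genes most alike the 10 were taken by group-centred Pearson r. P2ry12, Pros1, Cd44, Itgb2, Spi1, Lilrb4, Cybb and Ch25h were named after their values were seen. Values of 1 listed gene are not reported here. Alternatives were quantile normalization, median scaling, a filter at 1 FPKM or none, a pseudocount of 0.1, limma without its options, a replicate block, log2(Ttr + 1) as a covariate, 1 fit of all 4 groups, the study's thresholds and each mouse left out.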

Additional observations from a re-analysis of the deposited data

Results flagged for a closer look

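A single mouse stood apart from the rest of its group in 7 of 50 combinations of gene and group that hold 4 to 10 samples, by Dixon's test at 95%. Chance gives about 1 in 20 for independent combinations, but these share mice, so the number of flags is a description. Control mouse 3 was the highest of its group for 6 of the 10 genes and was flagged by the test for 3 of them. These were Tyrobp at 153.4 FPKM (next 135.3), Cst7 at 2.22 FPKM (next 0.801) and Itgax at 0.152 FPKM, where the other 3 control mice were listed at 0. With the others at 0, any value of Itgax above 0 would be flagged, and this one rests on 2 fragments. The flag of Cst7 rests on 6 fragments, against 2, 4 and 3 in control mice 1, 2 and 4. In control mouse 4, Axl was the lowest of its group at 4.69 FPKM (next 5.502). In compound mouse 4, Csf1 was 8.28 FPKM (next 5.68) and Spp1 was 65.4 FPKM (next 19.0). Lpl was the lowest of its group in sample 4 of the Hdac1 cKO GFAP+ nuclei, at 1.09 FPKM (next 1.58).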

How the results depend on the processing

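Leaving out single mice, the number of the 10 genes that passed was 5 to 8 in 5XFAD and 4 to 6 in compound mice against control, 6 to 9 in compound against Hdac1 cKO mice and 0 to 0 in Hdac1 cKO against control, compound against 5XFAD and the interaction. In compound against control mice, 10 passed at the study's thresholds, 3 with a replicate block and 1 without the mice with Ttr of at least 1000 FPKM, a setting chosen after seeing the data. That setting left 1 control mouse, assumed to vary like the others, 2 5XFAD, 4 Hdac1 cKO and 4 compound mice, and 0.0917% of all genes passed as higher in compound against control mice, so no call is read from it. At the study's thresholds 1 gene passed in compound against 5XFAD mice and 1 in the interaction. Without compound mouse 4 these numbers were 0 and 1. Over all genes, rises in compound against control mice numbered 90, 33 with the replicate block, which also leaves out compound mouse 5, 28 with the Ttr covariate and 173 with all 4 groups in 1 fit, and rises in 5XFAD mice numbered 96, and 47 with the block, which also leaves out 5XFAD mice 5 and 6. Same-numbered mice did not deviate together (r from -0.11 to 0.08), so the numbers do not pair the mice.

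The following values had the opposite sign to that with all mice. Those without the mice of high Ttr rest on 1 control mouse, 2 5XFAD mice or both, so no direction is read from them. In Hdac1 cKO against control mice, Axl was 0.000383 under quantile normalization, Lpl -0.19, Csf1 -0.0257 and Spp1 0.91 with the Ttr covariate, and Trem2 -0.19, Lpl -0.41, Csf1 -0.0698 and Spp1 0.61 without the mice of high Ttr. In the same setting, with 2 5XFAD mice left, Itgax was -0.0846 and Lpl -0.0198 in compound against 5XFAD mice, and the interaction was -0.0417 for Cst7, -0.10 for Itgax, 0.0501 for Csf1 and -0.14 for Spp1. With mice left out singly, Axl ran from -0.0845 to 0.0270 and Lpl from -0.0305 to 0.25 in Hdac1 cKO against control mice, Itgax from -0.0755 to 0.30 in compound against 5XFAD mice, and the interaction from -0.0357 to 0.29 for Trem2, -0.0653 to 0.31 for Itgax and -0.0905 to 0.19 for Lpl. The causes were not tested. Depth limits Itgax, Clec7a and Cst7 without amyloid, where 0 to 10 fragments stand behind a value. Over the settings tried, single genes lost a call 65 times and gained one 16 times, and the sign differed 21 times, all listed here.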
